A study of Homo sapiens with 6 samples.

Results

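Endoplasmic reticulum (ER) associated degradation was followed through 10 genes: HERPUD1, SYVN1, SEL1L and OS9 of the HRD1 ligase complex, the family EDEM1, EDEM2 and EDEM3, and the family DERL1, DERL2 and DERL3. They were taken by gene name from the 28847 genes of the deposited table, and all 10 were found. Polyadenylated RNA had been sequenced from 6 libraries labelled THP-1, a human line derived from a monocytic leukaemia. The control group held 3 libraries of THP-1 alone, and the RBP4 group held 3 libraries of THP-1 treated with recombinant human RBP4 protein, which carries retinol in plasma, in what the study calls an M0 macrophage model. Dose, time and the steps to the M0 state were not given in the labels used here. Nothing in the labels says that the libraries came from separate cultures, so p-values measure the spread between these libraries, which may be technical.

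Each library held between 15202000 and 16420517 reads, and 3 reads corresponded to between 0.183 and 0.197 CPM (reads scaled to a common library total). No pair of libraries in a group agreed within sampling noise, so each was counted as 1 replicate. The labelled cell type was checked against 22 monocyte and macrophage markers, of which 18 were in the table and 4 reached 10 CPM in all 6 libraries (CD33, SPI1, FCGR2A and CTSS). CD14, the lipopolysaccharide co-receptor of monocytes, was at most 0.132 CPM. Of 19 erythroid markers 16 reached 10 CPM in all 6 libraries. The labelled identity was therefore not borne out by most of its markers in either group. The summed erythroid level was 2834 to 2837 CPM in the control libraries and 2551 to 2626 CPM in the RBP4 libraries, and the mitochondrial share of reads was 5.90 to 6.10% and 7.58 to 7.69%. Summed monocyte and macrophage markers lay between 228 and 235 CPM and between 234 and 247 CPM. Of 4 epithelial markers EPCAM alone reached 10 CPM in all libraries. Their summed level was 51.7 to 56.3 CPM in the control libraries and 34.3 to 38.1 CPM in the RBP4 libraries. No fibroblast, T and NK or B cell marker reached 10 CPM in all libraries: for 3 fibroblast markers the sum was 8.23 to 10.7 and 12 to 13.7 CPM, for 5 T and NK markers 4.47 to 5.53 and 3.78 to 4.18 CPM, and for 3 B cell markers 5.3 to 8.22 and 6.88 to 7.06 CPM. The part of these differences in the results below was not tested, and in bulk RNA fewer expressing cells and less RNA per cell cannot be told apart.

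ER-associated degradation removes proteins that fail to fold in the ER. Mannose trimming marks a misfolded glycoprotein, lectins carry it to a ligase complex in the membrane, and the p97 ATPase pulls the ubiquitinated chain into the cytosol for the proteasome. Several of its components are known targets of the unfolded protein response, the signalling by which a cell adjusts its ER to the load of unfolded protein.

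Of the 10 genes 8 were raised in the RBP4 libraries, 0 were lowered and 2, EDEM2 and DERL1, did not pass the test. Raised and lowered mean past the threshold of 0.05 after Benjamini-Hochberg adjustment over all genes, in a limma fit of log2(value + 1). Across the 15676 genes tested 50.6% were called, 24.5% raised and 26.1% lowered, so a call by itself was common in this comparison. The members' median log2 fold change was 0.59, against -0.00 over all genes tested. Their values did not overlap between the groups in 8 of 10 cases, against 56.2% of all genes tested. Each member had at least 10 normalized reads in all 6 libraries, so none entered the test through 1 group alone. Among the 6808 genes whose mean level lay in the range spanned by the members other than DERL3, 23.8% were raised and 33.9% lowered, with a median of -0.04. The members had been chosen with earlier results of these data known, so these comparisons may partly reflect that choice.

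**Figure D1:**
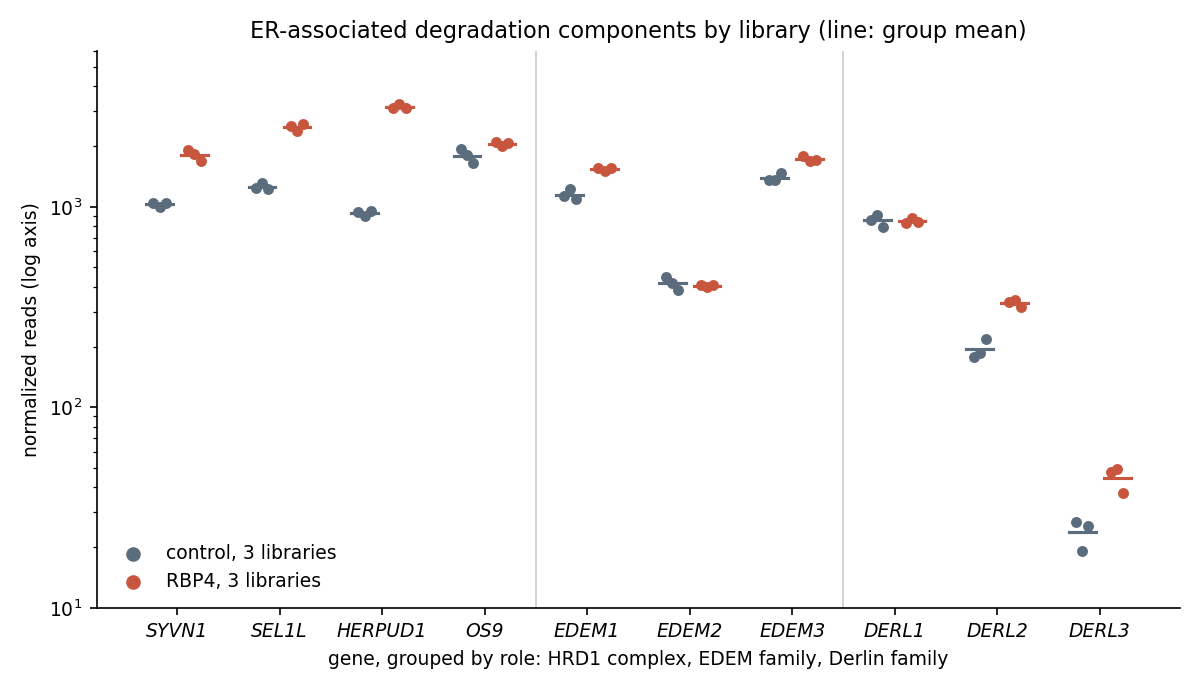
Level of each of the 10 genes in each library, in normalized reads on a log axis; points are libraries (grey, control; red, RBP4) and lines are group means of 3. The groups stand apart for 8 genes, and the points of EDEM2 and DERL1 overlap.

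Summed over the 10 genes, the control libraries held 9180, 9119 and 8881 normalized reads and the RBP4 libraries 14614, 14360 and 14335. The increase was uneven between genes, with log2 fold changes from -0.04 for EDEM2 to 1.76 for HERPUD1. The HRD1 complex had 4 of 4 genes raised (median log2 fold change 0.91), against 24.5% of all genes tested. The Derlins had 2 of 3 raised (median 0.76) and the EDEM family 2 of 3 (median 0.31). The Derlin median is the value of DERL2, between -0.00 for DERL1 and 0.88 for DERL3. DERL3 had 19 to 52 reads per library and shares 77% of its exonic bases with SMARCB1 on the opposite strand, so its level is uncertain. With 3 or 4 genes each, a difference between the families was not tested.

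HERPUD1, a membrane protein with a ubiquitin-like domain that helps assemble the HRD1 complex and is itself short-lived, changed most among the members. Its control libraries held 941, 901 and 952 normalized reads and its RBP4 libraries 3101, 3241 and 3104. Every RBP4 library was more than 3 times as high as every control library. The group means were 931 ± 27 and 3148 ± 79.9 (SD, n = 3), a 3.38-fold difference, with a log2 fold change of 1.76 (SE 0.04, limma adjusted p = 2.1e-47). It ranked 125 of the 15676 genes tested by log2 fold change. The gene (ENSG00000051108) lies on chromosome 16 from 56932048 to 56944863 on the plus strand of GRCh38.

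The HERPUD1 promoter is shown because it was the one member promoter that held complete elements of those searched. RefSeq windows (GRCh38.p14) of 300 bases, from 250 before to 50 after the start, were available for 8 of the 10 members and searched on both strands. The searched elements were ERSE (CCAAT and CCACG with 9 bases between), ERSE-II (ATTGG and CCACG with 1 base between), the XBP1 core (TGACGTGG) and the ATF4 composite (TGATGNAA). In the window printed for HERPUD1, chr16:56931892-56932047 on the plus strand, the first capitals mark the ATF4 composite, read on the minus strand, and the second the ERSE-II. The window ends before the annotated gene start.
HERPUD1: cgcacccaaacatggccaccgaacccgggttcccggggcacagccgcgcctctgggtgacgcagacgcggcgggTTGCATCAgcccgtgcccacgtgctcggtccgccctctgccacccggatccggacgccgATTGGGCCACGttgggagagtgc

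The ERSE-II of HERPUD1 lay at positions -117 to -107 from the RefSeq start and its ATF4 composite at -176 to -169. ERSE-II was found in 19 of 35116 windows (0.0541%), ATF4 composites in 1270 (3.62%), ERSE in 27 (0.0769%) and the XBP1 core in 256 (0.729%). Among the 8 members, 1 window held an ERSE-II, 1 an ATF4 composite, 0 an ERSE and 0 an XBP1 core. For comparison, among 12 genes of ER chaperones with a window, 6 held an ERSE (HSPA5, HSP90B1, CALR, CANX, CRELD2 and PDIA6). Another 2 held an ERSE-II (SDF2L1 and HYOU1), 1 an XBP1 core (HYOU1) and 0 an ATF4 composite. The XBP1 core of HYOU1, at -188 to -181, overlaps its distal ERSE-II. The 4 ERSE-II elements of HERPUD1, SDF2L1 and HYOU1 are aligned below with 10 flanking bases on each side and the element in capitals. HERPUD1 is at chr16:56932015-56932045 on the plus strand, SDF2L1 at chr22:21642104-21642134 on the minus strand, and HYOU1 at chr11:119057370-119057400 and at chr11:119057264-119057294, both on the plus strand.
HERPUD1: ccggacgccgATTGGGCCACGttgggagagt
SDF2L1: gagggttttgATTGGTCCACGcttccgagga
HYOU1 distal: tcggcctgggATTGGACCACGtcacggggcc
HYOU1 proximal: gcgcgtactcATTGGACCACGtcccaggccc

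SDF2L1, a partner of the ER chaperone BiP, had 3957 ± 82.6 normalized reads across the control libraries and 6349 ± 179 in the RBP4 libraries (log2 fold change 0.68). HYOU1, a large ER chaperone, had 4374 ± 88.3 and 9263 ± 59.1 (log2 fold change 1.08). All 3 genes with the printed elements were raised. So were 12 of the 13 ER chaperones listed, with or without an element, against 24.5% of all genes tested. MANF (1.33) and PDIA4 (0.90), whose windows held no complete element, were among those raised. Of the 6 genes with an ERSE 5 were raised, with log2 fold changes of 1.60 for HSPA5, 1.36 for CRELD2, 0.82 for CALR, 0.72 for HSP90B1 and 0.10 for CANX. The other, PDIA6, had -0.03 (adjusted p = 0.48, limma). Among 48 other genes of the pathway with a window, 5 held an XBP1 core. Of these DNAJC10 (0.38), TXNDC11 (0.37) and UBE2J1 (0.37) were raised, TXNDC5 (-0.17) was not called and VCP (-0.20) was lowered. A match describes letters in the window and is not evidence of a bound site.

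The promoters of SEL1L and SYVN1 are shown because these genes had the next largest changes among the well-expressed members without a complete element. The half-site CCACG, which both ERSE types contain, was searched after the data had been seen. It was present in 13375 windows (38.1%) and in 6 of 8 member windows, all but those of EDEM2 and DERL2. Counted by gene, with a match in any window of the gene, it was present in 35 of 48 other genes of the pathway and in 11 of 12 ER chaperones. The SEL1L window, chr14:81533862-81534103, and the SYVN1 window, chr11:65134534-65134769, are both on the minus strand and end before the annotated gene start. Capitals mark the half-site on either strand.
SEL1L: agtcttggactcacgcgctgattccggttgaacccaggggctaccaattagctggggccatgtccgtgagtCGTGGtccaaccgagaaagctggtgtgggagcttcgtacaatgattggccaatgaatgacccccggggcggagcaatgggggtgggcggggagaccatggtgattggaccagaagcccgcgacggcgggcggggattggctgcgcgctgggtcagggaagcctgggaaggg
SYVN1: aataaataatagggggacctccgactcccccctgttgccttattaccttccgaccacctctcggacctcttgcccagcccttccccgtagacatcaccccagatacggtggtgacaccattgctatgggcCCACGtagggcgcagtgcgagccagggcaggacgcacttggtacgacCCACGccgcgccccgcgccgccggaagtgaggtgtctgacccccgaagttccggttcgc

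**Figure D2:**
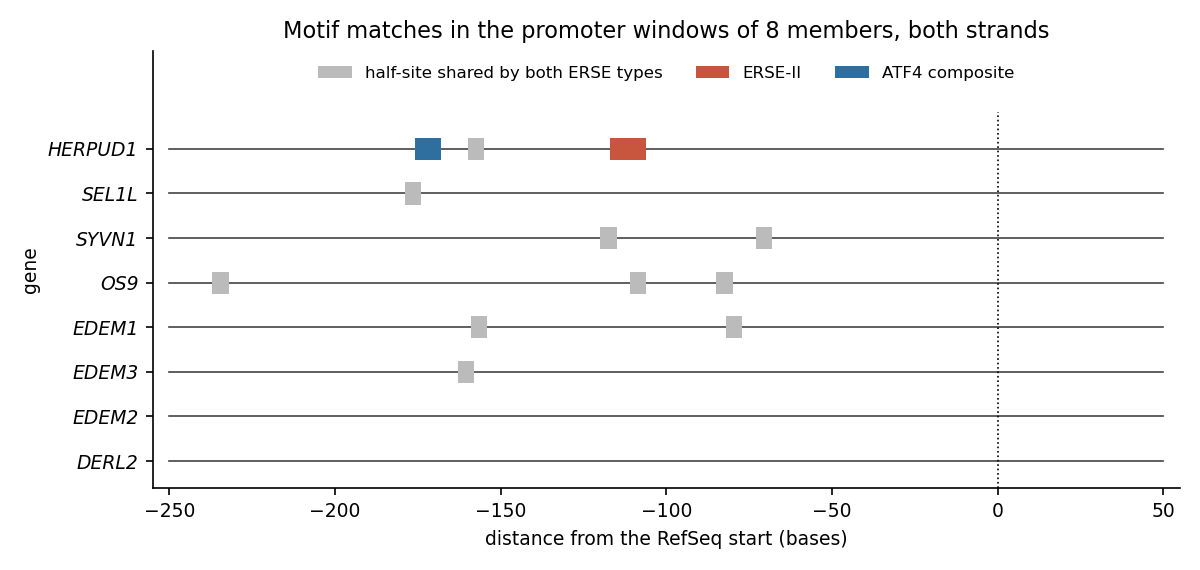
Positions of matches on either strand in the promoter windows of 8 members, in bases from the RefSeq start (dotted line); grey, half-site; red, ERSE-II; blue, ATF4 composite. HERPUD1 is the one line with coloured matches, and the lines of EDEM2 and DERL2 carry none; a further half-site of HERPUD1 lies inside its ERSE-II.

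SYVN1 encodes HRD1, the ubiquitin ligase at the centre of the complex, and SEL1L is the partner that stabilises it and links it to the ER lumen. SEL1L (ENSG00000071537, chromosome 14, 81471549 to 81533861, minus strand) had 1242, 1311 and 1234 normalized reads across the control libraries and 2532, 2399 and 2602 in the RBP4 libraries. Its lowest RBP4 library was far higher than its highest control library. The means were 1262 ± 42.5 and 2511 ± 103 (SD, n = 3), a 1.99-fold difference (log2 fold change 0.99, SE 0.04, limma adjusted p = 1.2e-32).

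SYVN1 (ENSG00000162298, chromosome 11, 65121780 to 65134533, minus strand) had 1044, 995 and 1042 normalized reads across the control libraries and 1912, 1840 and 1698 in the RBP4 libraries. The groups did not overlap, and the RBP4 libraries spread more widely than the controls. The means were 1027 ± 27.7 and 1817 ± 109, a 1.77-fold difference (log2 fold change 0.82, SE 0.045, limma adjusted p = 1.9e-25). Per kilobase, the ratio of SYVN1 to SEL1L was 1.42 ± 0.0841 in the control libraries and 1.26 ± 0.11 in the RBP4 libraries. The libraries of the groups overlapped, with ratios from 1.32 to 1.47 in the control group and from 1.13 to 1.33 in the RBP4 group. The two-sided exact permutation p was 0.2 (adjusted over 7 values 0.233). Because 3 against 3 libraries cannot give less than 0.1, this test cannot decide whether the ratio differs.

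OS9, a lectin that hands trimmed glycoproteins to SEL1L, changed least among the raised genes. Its normalized reads were 1947, 1802 and 1654 in the control libraries and 2096, 2005 and 2076 in the RBP4 libraries. The gap between the groups was small beside the spread of the controls. The means were 1801 ± 146 and 2059 ± 47.8 (log2 fold change 0.20, SE 0.043, limma adjusted p = 0.00013). ERLEC1, the other lectin of the complex, had 879 ± 26.2 and 823 ± 18.9 normalized reads and did not pass the test (adjusted p = 0.125, limma).

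**Figure D3:**
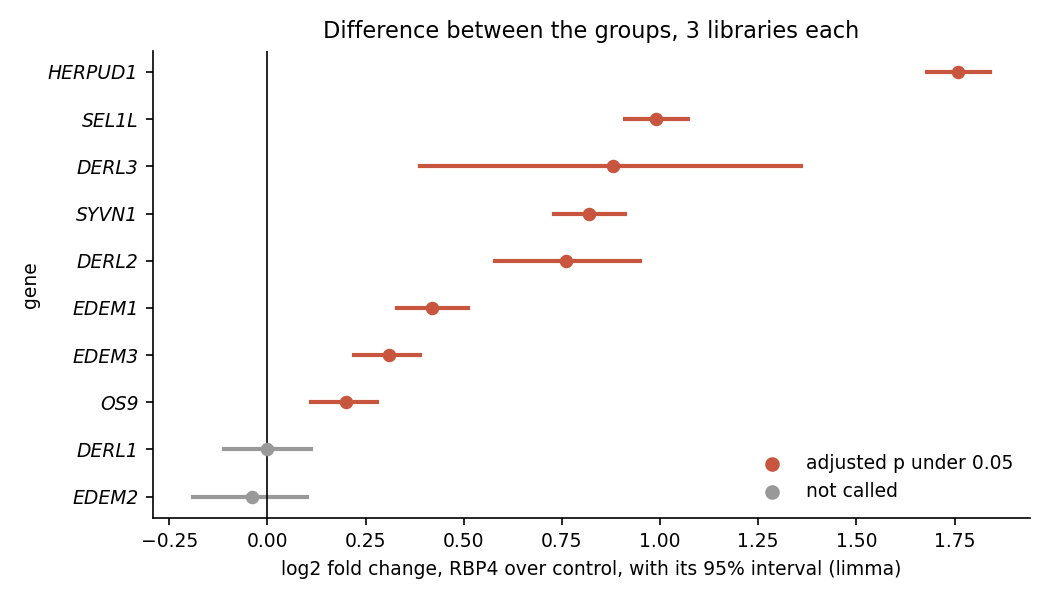
Log2 fold change of each gene, RBP4 over control, from limma on log2(value + 1), with its 95% interval; red, adjusted p under 0.05; grey, not called. HERPUD1 is highest at 1.76, DERL3 has the widest interval, and the intervals of DERL1 and EDEM2 include 0.

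The EDEM proteins are related to mannosidases and trim or recognise the sugars of misfolded glycoproteins. EDEM1 had 1136, 1220.5 and 1092 normalized reads across the control libraries and 1563, 1501 and 1553 in the RBP4 libraries. The means were 1150 ± 65.2 and 1539 ± 33.1, a 1.34-fold difference (log2 fold change 0.42, SE 0.045, limma adjusted p = 1.8e-12). EDEM3 had 1358, 1353 and 1482 in the control libraries and 1787, 1701 and 1703 in the RBP4 libraries, or 1398 ± 73 and 1730 ± 49.5 (log2 fold change 0.31, SE 0.043, limma adjusted p = 5.6e-09). For both genes all RBP4 libraries were above all control libraries.

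EDEM2, which with the reductase TXNDC11 starts mannose removal, did not pass the test. Its normalized reads were 449, 418 and 385 in the control libraries and 409, 399 and 406 in the RBP4 libraries. The RBP4 values lay within the control range. The log2 fold change was -0.04, with a 95% interval from -0.19 to 0.10 (limma adjusted p = 0.667). The family's makeup, as shares of its summed level per kilobase, went from 38.4 ± 2.14% to 31.9 ± 0.266% for EDEM2 and from 30 ± 1.37% to 34.5 ± 0.303% for EDEM1 (SD, n = 3). EDEM3 held 31.6 ± 2.37% and 33.6 ± 0.472%.

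The Derlins are multi-pass membrane proteins that take part in the passage of substrates out of the ER. DERL2 had 179, 187 and 220 normalized reads across the control libraries and 334, 341 and 317 in the RBP4 libraries. Each RBP4 library was higher than each control library. The means were 195 ± 21.4 and 331 ± 12.5, a 1.69-fold difference (log2 fold change 0.76, SE 0.093, limma adjusted p = 1.7e-10).

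DERL1, the most abundant Derlin per kilobase, had 857, 913 and 795 normalized reads across the control libraries and 832, 884 and 840 in the RBP4 libraries. The groups overlapped fully. The log2 fold change had a 95% interval from -0.11 to 0.11 (limma adjusted p = 0.975).

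DERL3 was the lowest member, with 26.9, 19.1 and 25.7 normalized reads across the control libraries and 47.4, 49.1 and 37.2 in the RBP4 libraries. The groups did not overlap, and the means were 23.9 ± 4.19 and 44.6 ± 6.43 (log2 fold change 0.88, SE 0.24, limma adjusted p = 0.002). The library kit does not mark strand, and 2923 of the 3796 exonic bases of DERL3 (77%) overlap exons of SMARCB1, a chromatin remodelling subunit on the opposite strand. SMARCB1 was far more abundant and moved the other way, from 1181 ± 82.5 to 1009 ± 25.5 normalized reads (log2 fold change -0.23, limma adjusted p = 9e-05). How reads of the shared bases were assigned is not given in the sources used here, so the level of DERL3 is uncertain.

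Overlaps of the other members were smaller than that of DERL3. The largest were with antisense transcripts, AC025165.2 over 13.5% of the exonic length of OS9 and AC026202.3 over 9.66% of that of EDEM1. Neither has values in the deposited table, so any part of these transcripts in the levels of OS9 and EDEM1 is not known. MIS12 overlaps 4.71% of the exonic length of DERL2 and was raised as well (log2 fold change 0.49). FAU and MRPL49 overlap 7.24% and 6.48% of SYVN1 and were both lowered, with log2 fold changes of -0.17 and -0.21. TBC1D31 overlaps 5.59% of DERL1 and was not called.

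DERL1 held 77.5, 79 and 73.2% of the Derlin level per kilobase in the control libraries and 64.4, 65.3 and 66.6% in the RBP4 libraries. DERL2 held 19.4 ± 2.58% and 28.2 ± 0.479%, and DERL3 4.01 ± 0.806% and 6.37 ± 0.752%. For all 3 Derlins and for EDEM1 and EDEM2 the shares did not overlap between the groups, which gave the smallest two-sided exact permutation p that 3 against 3 libraries allow, 0.1 (adjusted over 7 values 0.14). For EDEM3 the p was 0.4. With this test no share could pass a threshold of 0.05, so its p-values do not tell whether the shares differ.

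**Figure D4:**
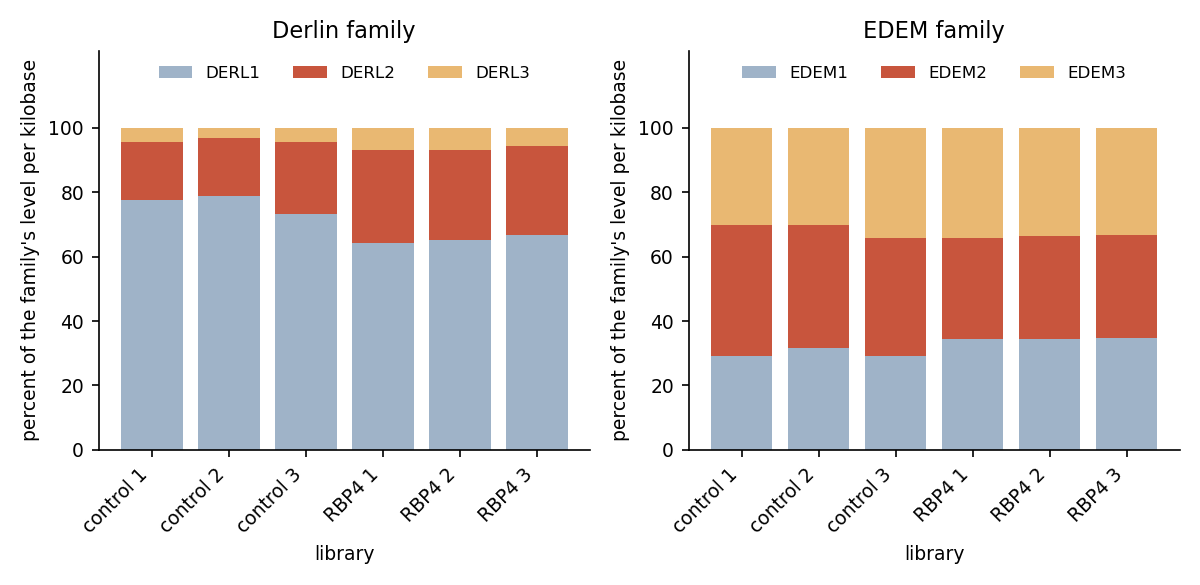
Share of each Derlin (left) and each EDEM gene (right) in its family's summed level per kilobase, in percent, 1 bar per library. DERL1 takes 73.2 to 79% in the control bars and 64.4 to 66.6% in the RBP4 bars, and EDEM2 takes 36.4 to 40.6% and 31.6 to 32.1%.

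The members' levels were also ordered after division by exonic length. That length counts every annotated exon of a gene, from 1919 bases for EDEM2 to 9559 for SEL1L. The lengths of the transcripts expressed are not known, so the order between genes depends on the annotation. In the control libraries OS9 was highest with 348 ± 28.3 normalized reads per kilobase, followed by EDEM2 (218 ± 16.6), SYVN1 (187 ± 5.04), HERPUD1 (181 ± 5.24), EDEM3 (179 ± 9.36), EDEM1 (170 ± 9.64), SEL1L (132 ± 4.45), DERL1 (121 ± 8.34), DERL2 (30.6 ± 3.35) and DERL3 (6.3 ± 1.1). SYVN1, HERPUD1, EDEM3 and EDEM1 formed a run in which each neighbouring pair overlapped. In the RBP4 libraries HERPUD1 came first with 611 ± 15.5, ahead of OS9 (398 ± 9.25), SYVN1 (331 ± 19.8), SEL1L (263 ± 10.8), EDEM1 (228 ± 4.89), EDEM3 (222 ± 6.34), EDEM2 (211 ± 2.55), DERL1 (120 ± 3.92), DERL2 (51.8 ± 1.96) and DERL3 (11.7 ± 1.69). There only EDEM1 and EDEM3 overlapped among neighbours. HERPUD1 made up 11.3, 11.1 and 12.1% of the summed level per kilobase of the 10 genes in the control libraries and 24.3, 25.7 and 24.9% in the RBP4 libraries.

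Calls in the rest of the pathway went both ways, as did calls over all genes tested. Of 66 other genes of ER-associated degradation, all tested, 18 were raised, 25 lowered and 23 not called, with a median log2 fold change of -0.06. Over all genes tested 24.5% were raised and 26.1% lowered, and in the members' range of levels 23.8% and 33.9%. With libraries scaled to equal total reads, 30.8% of all genes tested were raised and 19.1% lowered, and the same list had 23 raised and 18 lowered, so the balance of its calls turned with the scaling. The members' calls held under that scaling, 8 raised and 0 lowered, with HERPUD1 at 1.82, EDEM2 at 0.03 and DERL1 at 0.07 on the log2 scale.

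Within the HRD1 complex partners 4 of 10 genes were raised and 2 lowered, against 24.5% raised and 26.1% lowered over all genes tested. SELENOS, a selenoprotein that links the complex to p97, rose from 406 ± 21.5 to 587 ± 53.3 normalized reads (log2 fold change 0.53). SELENOK, another ER selenoprotein, rose from 265 ± 13.4 to 378 ± 19.6 (0.51). The ubiquitin-conjugating enzymes split: UBE2J1 rose (log2 fold change 0.37, adjusted p = 2e-11, limma) and UBE2G2 fell (-0.20, adjusted p = 4.6e-08, limma). FAM8A1, which helps HRD1 assemble, had a log2 fold change of -0.18, and HERPUD2, the paralogue of HERPUD1, had 0.22 (403 ± 47.5 and 468 ± 26.6 normalized reads, adjusted p = 0.011, limma). Its groups overlapped, and it was not called without control library 1 (adjusted p = 0.13, limma), without RBP4 library 3 (adjusted p = 0.067, limma) or by DESeq2 (adjusted p = 0.051), which left 3 of 10 partners raised.

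Other ER ubiquitin ligases had 3 of 10 genes raised and 3 lowered, near the 24.5% raised and 26.1% lowered over all genes tested. RNF185 (log2 fold change 0.48) and RNF170 (0.40) were raised, and RNF145 (-0.25) and MARCH6 (-0.22), a large ligase for sterol enzymes among other substrates, were lowered.

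Calls among genes of the cytosolic steps depended in part on the scaling. Of the 10 genes for p97 extraction 0 were raised and 5 lowered. Of the 14 for deglycosylation, deubiquitination and shuttling 0 were raised and 9 lowered. Over all genes tested 24.5% were raised and 26.1% lowered, and in the members' range of levels 23.8% and 33.9%. UFD1, an adaptor by which p97 binds ubiquitin chains, fell from 5208 ± 125 to 3676 ± 35.5 normalized reads (log2 fold change -0.50, limma adjusted p = 1.6e-23). VCP, which encodes p97, fell from 4988 ± 105 to 4347 ± 62.3 (-0.20, limma adjusted p = 4.3e-08). NGLY1, which strips N-glycans from exported proteins, fell from 1717 ± 44.9 to 1210 ± 31.4 (-0.50), and YOD1, a deubiquitinase that acts with p97, from 5007 ± 197 to 3728 ± 55.2 (-0.42). With equal total reads the p97 group had 1 raised and 2 lowered of 10, and the shuttling group 1 raised and 7 lowered of 14. Under that scaling 30.8% of all genes tested were raised and 19.1% lowered, so the lowered count of the p97 group was near the share of all genes. UFD1, VCP, NGLY1 and YOD1 remained lowered, at -0.43, -0.13, -0.44 and -0.36.

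Mannose trimming genes outside the EDEM family had 2 of 6 raised and 2 lowered, against 24.5% raised and 26.1% lowered over all genes tested. MAN1A2 was raised (log2 fold change 0.20), and MAN1A1 (-0.28) and MAN1B1 (-0.11) were lowered. MAN1B1 was no longer called with equal total reads (adjusted p = 0.448, limma), by edgeR (0.068) or DESeq2 (0.125), or without control library 1 or 3 or RBP4 library 1 or 2 (limma adjusted p from 0.072 to 0.216). MAN1C1 was raised (1.07) at 7.28 ± 2.83 and 15.9 ± 4.06 normalized reads, and had passed the minimum level only through the RBP4 libraries. It was not called without control library 1 (adjusted p = 0.132, limma), RBP4 library 1 (0.144) or RBP4 library 3 (0.068), or by DESeq2 (0.085). Membrane proteases and erlins had 3 of 8 raised and 3 lowered, against the same shares over all genes. HM13, the signal peptide peptidase, and RHBDD2, of the rhomboid family, each had a log2 fold change of 0.55, and JKAMP and ERLIN1 had -0.29 and -0.22.

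Luminal co-chaperones and reductases had 6 of 8 raised and 1 lowered, against 24.5% raised and 26.1% lowered over all genes tested. DNAJB9, a BiP co-chaperone, rose from 311 ± 8.56 to 553 ± 12.7 normalized reads (log2 fold change 0.83), and DNAJB11, another, from 569 ± 11.1 to 1001 ± 30.9 (0.81). ERP44, which retrieves proteins from the Golgi, had -0.22. Among 13 ER lumen chaperones, a list that shares DNAJB9, DNAJB11 and SDF2L1 with the previous group, 12 were raised and 0 lowered (median log2 fold change 0.82). HSPA5, which encodes BiP, had a log2 fold change of 1.60 and CRELD2, a disulfide-bond factor, 1.36.

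All 7 factors of the unfolded protein response were raised, from 0.11 for ATF6 to 2.28 for DDIT3, against 24.5% raised over all genes tested. ATF6 was not called without control library 1 (adjusted p = 0.055, limma) or without RBP4 library 3 (adjusted p = 0.102, limma), which left 6 of 7 raised. XBP1, the transcription factor downstream of IRE1, rose from 1304 ± 52.7 to 2054 ± 45.2 normalized reads (log2 fold change 0.66). ERN1, which encodes IRE1, had 0.41, and ATF4 0.50. Gene-level reads do not tell spliced from unspliced XBP1.

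**Figure D5:**
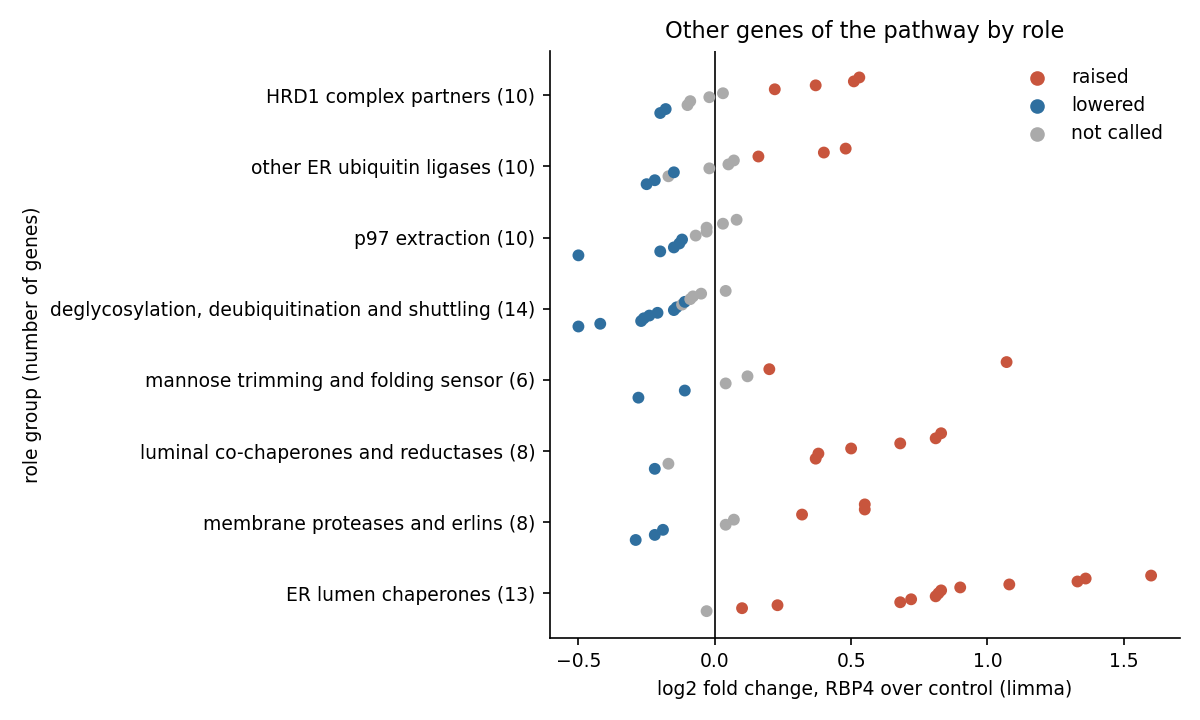
Log2 fold change, RBP4 over control, of the other genes of the pathway and of ER lumen chaperones, 1 point per gene, by role, with the number of genes in parentheses; red, raised; blue, lowered; grey, not called. The p97 and shuttling rows hold no red point, and the chaperone row holds 12 red points and no blue one.

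The genes most like HERPUD1 over the 6 libraries were found by the root-mean-square difference of centred log2(value + 1). They were CLIP2 (0.0402), AKNA (0.0434), ATF3 (0.0574), TRIB3 (0.0757) and HSPA5 (0.0835). Their log2 fold changes lay between 1.60 and 1.85, around the 1.76 of HERPUD1. Their levels ran from 159 ± 6.8 normalized reads for CLIP2 to 13531 ± 201 for HSPA5 in the control libraries. Most like SEL1L were EIF5 (0.0254), LINC00205 (0.0345), MYL5 (0.0369), SLC3A2 (0.0437) and EPOR (0.0474), with log2 fold changes between 0.96 and 1.03. All these genes share the same 6 libraries, and the measure ranks likeness without a test. It is computed on the same values as the fold changes, so near fold changes follow from how these genes were picked.

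By the authors' deposited table, 8 members had an adjusted p under 0.05, with OS9 at 0.0024 and DERL3 at 0.031. EDEM2 (0.789) and DERL1 (0.972) did not pass in the authors' deposited table either.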

How the data were processed

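RNA sequencing libraries from 3 control and 3 RBP4 samples were compared, grouped by sample title. Per the labels' protocols, poly-T selected RNA was made into libraries with a kit that does not mark strand. No aligner or read counter is named in the sources used here. The authors provided a deposited table of normalized signal per gene and library, with group means and their own log2 fold changes and p-values. Each signal was a whole multiple of 1 step per library (100% of values within 0.01 reads), the form of read counts scaled by 1 size factor. These signals are called normalized reads, and recovered reads gave depth and CPM. Start, end and exonic length of all 28847 genes equalled those of GENCODE release 29 (GRCh38), and 0 columns of per-sample values were unused.

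Genes reaching 10 normalized reads in 3 or more libraries were tested, and log2(value + 1) was fitted with limma 3.58.1 (R 4.3.3; trend and robust moderation, two-sided, Benjamini-Hochberg over all genes, threshold 0.05). Fold changes on that scale understate those of low genes. The script was tested on simulated data. Shares used exact permutation tests. Alternatives were 2 pseudocounts (5 and 0.5), 2 filters, equal total reads, edgeR 4.0.16 and DESeq2 1.42.0 on recovered reads, a replicate block and leaving out each library. The 10 members and the gene lists were chosen with earlier results of these data known. Named were all members and, per role, up to 2 raised and 2 lowered genes of largest absolute log2 fold change. ERLEC1, HERPUD2, UBE2J1, SDF2L1, HYOU1, PDIA6, CANX, CALR and HSP90B1 were named after their values were seen. So were MANF, PDIA4, DNAJC10, TXNDC11, TXNDC5, ATF6, ERN1, ATF4 and the genes overlapping a member.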

Additional observations from a re-analysis of the deposited data

How the results depend on the processing

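The calls of the 10 members were the same under each alternative run, except that DERL3 was left untested by a minimum of 100 normalized reads, which left 7 of 9 raised. EdgeR on recovered reads called 7820 genes and DESeq2 6510, against 7934, and both raised 8 members and lowered 0. The other genes of the pathway ranged from 16 to 23 raised and 18 to 25 lowered. Equal total reads changed the share of calls that were raised from 48.4% to 61.7% and shifted the median of all genes by 0.068. Of the named pathway genes outside the members, HERPUD2, MAN1B1, MAN1C1 and ATF6 lost their call under at least 1 alternative. Without 1 library, between 7044 and 7521 genes were called, and the members' highest adjusted p was 0.018 for DERL3 and 0.0056 for OS9 among those raised (limma). Same-numbered libraries did not deviate together (correlations 0.004, -0.008 and -0.017). The values thus show no shared effect of the number, but cannot tell whether the libraries were prepared in pairs. The fit with the replicate block called 7829 genes, with 8 members raised, 0 lowered, and 18 and 25 other pathway genes raised and lowered. Without division by length, the RBP4 minus control difference in share was 1.39 percentage points for DERL3 (2.36 per kilobase), 3.12 for EDEM1 (4.47), -3.06 for EDEM2 (-6.4) and -0.0612 for EDEM3 (1.93), since length weights the genes. With 19 to 52 reads per library, depth limits DERL3 most.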

Other observations

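Both transcripts annotated inside an intron of HERPUD1, on its strand, were also raised. They lie in the same intron and their positions overlap, so their rises may not be separate observations. AC012181.2 (chromosome 16, 56940278 to 56941342) had 13.5, 9.06 and 9.64 normalized reads across the control libraries and 46.4, 64.2 and 64.9 in the RBP4 libraries (log2 fold change 2.35, limma adjusted p = 4.8e-11). AC012181.1 (chromosome 16, 56941028 to 56941726) had 6.21, 10.1 and 4.28 in the control libraries and 38.7, 34 and 30.5 in the RBP4 libraries (2.23, limma adjusted p = 1.7e-07). Both passed the minimum level only through the RBP4 libraries, and reads from unspliced HERPUD1 RNA cannot be told apart from theirs. SEL1L3, a relative of SEL1L, rose from 1571 ± 63.8 to 1974 ± 26.8 normalized reads (0.33, limma adjusted p = 1.2e-10). These genes were chosen after their values were seen.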
